A study of Mus musculus with 5 samples.

Results

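Cells annotated as immune were counted and located in single-cell RNA libraries of mouse pancreatic islets. The members are all cells that the deposited annotation calls immune. They numbered 629 of 18221 cells, or 3.45%, and made up the whole of cluster 10, which held no cell of another type. Each cell has a deposited library name, type and cluster, and a place in a UMAP embedding, a flat map in which cells of like expression lie near each other. Expression per gene was not analysed here, so the label was not checked against Ptprc, the pan-leukocyte marker, and no kind of immune cell can be named.

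All mice carried floxed Atf6a alleles (Atf6a fl/fl). ATF6α is a membrane-bound transcription factor of the endoplasmic reticulum that is cut free when unfolded proteins accumulate. Control mice are listed without Cre. The knockout mice (cKO) also carried RIP-Cre, in which the rat insulin promoter drives the recombinase, mainly in beta cells, so the loss of ATF6α and the presence of Cre cannot be told apart, and the immune cells are not the intended target. Both genotypes were fed normal chow (10% of energy from fat) or high-fat chow (60%), beginning at 6 weeks and lasting up to 22 weeks of age. Normal-diet cKO mice gave 2 libraries (batches 1 and 2), and each of the other 3 groups gave 1, labelled batch 1. Each library pooled islets of 2 mice.

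Mouse islets hold a small resident immune population, most of it macrophages that lie close to blood vessels and beta cells and take up their secreted products. Islet macrophages are known to become more numerous in obesity. Collagenase digestion and hand picking, used to isolate islets, can leave exocrine tissue, vessels and blood cells attached, so an immune cell in such a library may come from inside or from around the islet.

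The libraries were of very unequal size. The controls had 7998 cells on normal diet, 199 of them immune, and 6667 on the high-fat diet, 282 of them immune. The cKO libraries had 40 cells (7 immune) in batch 1 on normal diet, 1033 (74 immune) in batch 2 and 2483 (67 immune) on the high-fat diet. The 40-cell library stands apart, with no alpha, delta, PP, endothelial or neuron cell, and ratios of immune cells that average it with batch 2 are also given without it. For other cell types its zeros lower the mean, so their ratios to the cKO normal diet are printed for batch 2 alone. Shares of cell types with an interval excluding 0 are given first with that mean, zeros included, and then with batch 2 alone. A total of 140 cell barcodes occurred in 2 libraries, 0.774% of all barcodes. Of these, 8 marked an immune cell in at least 1 library, and 0 marked immune cells in 2 libraries.

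Numbers were first set against beta cells, the insulin-secreting majority of the islet. The control normal-diet library held 4.52 immune cells per 100 beta cells (exact 95% counting interval 3.90 to 5.21) and the control high-fat library 5.83 (5.15 to 6.57). The cKO normal-diet libraries held 22.6 (8.39 to 52.3) in batch 1 and 31.4 (23.8 to 40.9) in batch 2, a mean of 27.0 ± 6.21 (SD, n = 2). The cKO high-fat library held 3.20 (2.47 to 4.08), the lowest of the 5. Both cKO normal-diet libraries thus lay above all others, and the intervals of the remaining 3 libraries lay between 2.47 and 6.57.

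Set against all endocrine cells (beta, alpha, delta and PP), the batch 2 library was much closer to the others. It held 7.86 immune cells per 100 endocrine cells (6.12 to 9.97). The 31 endocrine cells of the batch 1 library were all beta cells, so its value stayed at 22.6 (8.39 to 52.3). The control libraries held 2.62 (2.26 to 3.01) on normal diet and 4.55 (4.03 to 5.13) on the high-fat diet, and the cKO high-fat library 2.82 (2.17 to 3.59). The intervals of the control normal-diet and cKO high-fat values overlapped.

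Endothelial cells line the islet capillaries and, like immune cells, are not endocrine, so they give a yardstick that does not depend on how many hormone cells were recovered. The control normal-diet library held 2.49 immune cells per endothelial cell (1.91 to 3.27), which was the lowest value. The control high-fat library held 3.97 (3.05 to 5.23), the cKO high-fat library 4.47 (2.52 to 8.42) and the batch 2 cKO normal-diet library 5.69 (3.13 to 11.2). The last 2 values rest on 15 and 13 endothelial cells. The batch 1 cKO normal-diet library had 7 immune and 0 endothelial cells, which with 3 cells as the limit for a count of 0 gives at least 2.33. The order of the libraries therefore depended on the denominator: among the 4 libraries with endothelial cells, cKO high-fat was lowest per beta cell and second highest per endothelial cell, with an interval that overlapped those of both controls.

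**Figure D1:**
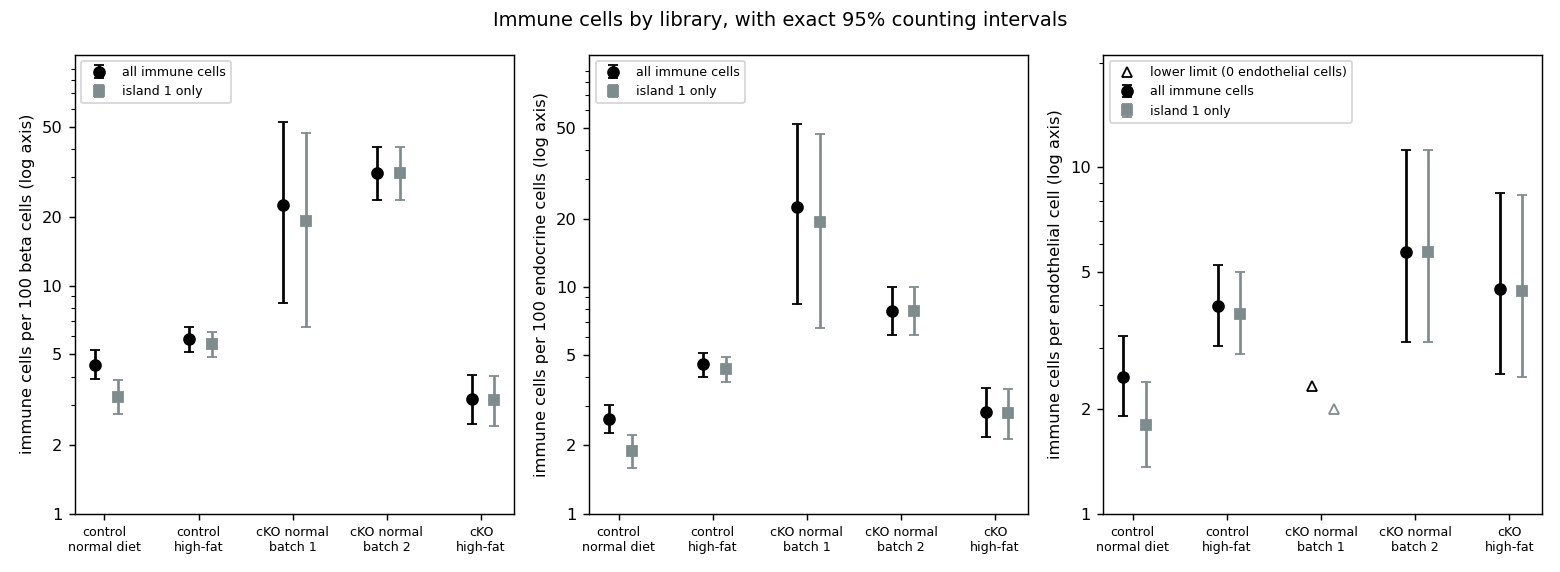
Immune cells per 100 beta cells, per 100 endocrine cells and per endothelial cell (log axes) in the 5 libraries, with exact 95% counting intervals; black circles count every immune cell, grey squares only those of the largest island of the embedding, and open triangles are lower limits. Both cKO normal-diet libraries lie above the others per 100 beta cells, at 22.6 and 31.4. Per endothelial cell the values span 2.49 to 5.69 among libraries with endothelial cells, and batch 1 has only a lower limit of 2.33.

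Groups were compared by log2 ratios with 95% counting intervals, which do not cover the variation between mice or preparations. The pair of cKO normal-diet libraries gives the sole view of that variation. The labels list them as separate samples of different batches, but their cells share 1 ending of the deposited cell identifiers, whereas every other library has its own. Their gap was 0.47 on the log2 scale per beta cell, where batch 1 over batch 2 was -0.47 (-1.72 to 0.77). It was 1.52 (0.29 to 2.75) per endocrine cell and could not be measured per endothelial cell. To be called larger than the gap, a ratio had to exceed it in size and have an interval without 0. The gap per beta cell is small, but its interval reaches a size of 1.72, so calls below that size rest on 7 immune cells.

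In control mice the high-fat library had more immune cells than the normal-diet library under every denominator. The log2 ratio was 0.37 (0.10 to 0.64) per beta cell, 0.80 (0.53 to 1.06) per endocrine cell and 0.68 (0.14 to 1.21) per endothelial cell. The ratios per beta and per endocrine cell were below the replicate gap, and the call per endothelial cell was undetermined. For scale, the interval of the same ratio per beta cell excluded 0 for 6 of 7 cell types other than beta, or 85.7%, and passed the gap for 1 of the 2 types that had a measurable gap, or 50%. Alpha and delta cells were lower per beta cell in the high-fat library (log2 ratio -1.45 and -1.26), opposite to immune cells, and so were PP and acinar cells. Neurons were higher, by more than immune cells, at 3.16 (2.30 to 4.02), so a higher value was not particular to immune cells. For endothelial cells the ratio was -0.31 (-0.77 to 0.16), an interval that included 0.

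In cKO mice the high-fat library had fewer immune cells per beta cell than the normal-diet mean, 8.42-fold, or a log2 ratio of -3.07 (-3.72 to -2.43). The value was -2.82 within batch 1 and -3.29 against batch 2 alone. Each of these was larger than the gap of 0.47. Of the 6 cell types with enough cells, 5 or 83.3% had an interval excluding 0, with or without batch 1, and immune cells were the 1 type with a measurable gap (100% called). Against batch 2 alone the endocrine types were lower per beta cell by more than immune cells, with log2 ratios of -4.50 (-4.86 to -4.15) for alpha, -4.37 (-4.72 to -4.01) for delta and -4.51 (-5.13 to -3.90) for PP cells. For endothelial cells it was -2.94 (-4.03 to -1.85). Batch 2 had 136 alpha and 126 delta cells per 100 beta cells, against 43.7 and 21.4 in the control normal-diet library, so its few beta cells move with the immune value. Their part in the result was not tested. Per endocrine cell the log2 ratio was -2.43 (-3.38 to -1.49), above the gap of 1.52. Against batch 2 alone it was -1.48 (-1.97 to -0.99), no longer above it. Per endothelial cell, where batch 2 alone could be used, it was -0.35 (-1.52 to 0.82), an interval that included 0.

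On normal diet the cKO value lay above the control library under every denominator. It was the mean of both libraries per beta and per endocrine cell. Per endothelial cell it was batch 2 alone, with 13 endothelial cells. The log2 ratio was 2.58 (2.00 to 3.16) per beta cell, a 5.97-fold difference, 2.54 (1.63 to 3.44) per endocrine cell and 1.19 (0.27 to 2.12) per endothelial cell. The ratios per beta and per endocrine cell were larger than the replicate gap, and the call per endothelial cell was undetermined. Within batch 1 the ratio was 2.32 (1.12 to 3.52) per beta cell and 3.11 (1.91 to 4.31) per endocrine cell. With batch 2 alone it was 2.80 (2.37 to 3.22) and 1.59 (1.19 to 1.98). Per beta cell, the interval excluded 0 for 4 of 6 cell types, or 66.7%, and for 5 of 6, or 83.3%, with batch 2 alone, while 1 of the 2 types with a measurable gap passed it, or 50%. With batch 2 alone the log2 ratio was 2.56 (2.29 to 2.82) for delta cells, 2.29 (1.90 to 2.69) for PP cells and 1.60 (0.73 to 2.47) for endothelial cells. These intervals overlapped that of immune cells. Those of alpha cells, at 1.64 (1.39 to 1.90), and acinar cells, at -2.52 (-5.37 to 0.33), lay below it.

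On the high-fat diet, where both libraries were of batch 1, the direction of the genotype difference changed with the denominator. The cKO library had fewer immune cells per beta cell, with a log2 ratio of -0.86 (-1.26 to -0.47), which was larger than the gap of 0.47 but within the upper size that the gap's interval allows. Per endocrine cell the ratio was -0.69 (-1.08 to -0.30), below the gap of 1.52. Per endothelial cell it was 0.17 (-0.72 to 1.06). The cKO high-fat library had 2093 beta cells, of which 1609 lay outside beta cluster 9, and without that cluster the ratio per beta cell was -0.50 (-0.89 to -0.11) against a gap of 0.74, and no longer called. Every one of the 6 cell types with enough cells had an interval excluding 0 per beta cell (100%), all below 0, and immune cells were the 1 type with a measurable gap (100% called).

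Dividing the diet ratio of cKO mice by that of controls gave -3.44 (-4.14 to -2.74) on the log2 scale per beta cell, -3.23 (-4.22 to -2.25) per endocrine cell and -1.02 (-2.31 to 0.26) per endothelial cell. This ratio of diet ratios was below 0 under all 3 denominators, and the first 2 exceeded their replicate gaps. All 6 cell types with enough cells had intervals excluding 0 per beta cell (100%), all below 0, and immune cells were the 1 type with a measurable gap (100% called). The share was also 100% without batch 1. With batch 2 alone the value was -3.66 (-4.24 to -3.08) for immune cells, and for the other types it ran from -3.92 (-5.69 to -2.14) for neurons to -2.63 (-3.82 to -1.45) for endothelial cells, so immune cells did not stand apart. These comparisons share libraries and are not independent of each other.

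**Figure D2:**
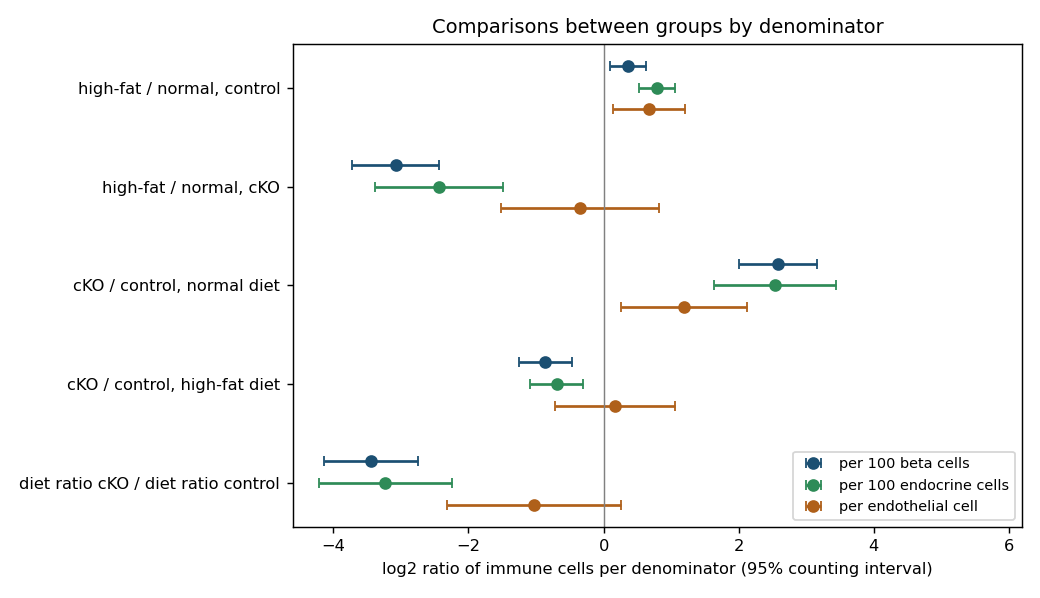
Log2 ratios of immune cells between groups (horizontal axis, with 95% counting intervals) for each comparison, per 100 beta cells, per 100 endocrine cells and per endothelial cell. The cKO over control ratio on the high-fat diet is -0.86 per beta cell and 0.17 per endothelial cell, and the diet ratio in cKO mice goes from -3.07 to -0.35.

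Pooling the 5 libraries by genotype or by diet allowed 6 two-sided exact permutation tests of mean log2 values. With all 5 libraries no p below 0.10 is possible, and with the 4 that had endothelial cells none below 0.333. Per beta cell the cKO libraries were higher than the controls by 1.36 on the log2 scale (exact permutation p = 0.40, adjusted p = 0.60), and the high-fat libraries differed from the normal-diet ones by -1.77 (exact permutation p = 0.30, adjusted p = 0.60). Per endothelial cell both cKO libraries lay above both controls, by a mean of 0.68 (exact permutation p = 0.333, adjusted p = 0.60). The other 3 tests had exact permutation p of 0.40 or above, and none of the 6 passed.

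The immune cluster was not in 1 piece in the embedding. Immune cells were linked when they lay within 0.5 UMAP units of each other, which gave 2 islands of at least 10 cells. Island 1 held 558 cells (88.7%) in an area of its own at the top of the embedding, and island 2 held 65 cells (10.3%) inside the area of beta cells. The remaining 6 cells lay singly or in pairs among cells of other types. The medians of both islands were 15.6 units apart, and their nearest cells were 13.7 units apart. The same link distance put 100% of endothelial cells, 98.7% of neurons and 97.1% or more of each endocrine type into 1 island. Acinar cells, with 79 and 28 cells, were the one other type with 2 islands.

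The surroundings of both islands differed. Of the 30 nearest cells of any type, 98.4% were immune for an average cell of island 1 and 61.8% for one of island 2. In island 2, 10 of 65 cells had less than 50% immune neighbours, and in island 1 none of 558 did. The nearest non-immune cells of island 2 were beta cells in 94.6% of cases, and 83.3% belonged to beta cluster 3. Conversely, 25 cells of other types had at least 50% immune neighbours around island 2, of which 23 were beta cells, 13 of them from the cKO high-fat library. Around island 1 there were 11 such cells, all annotated as beta and all from the control libraries. Whether cells in these places hold RNA of more than 1 cell type was not tested, since counts per gene were not analysed here.

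**Figure D3:**
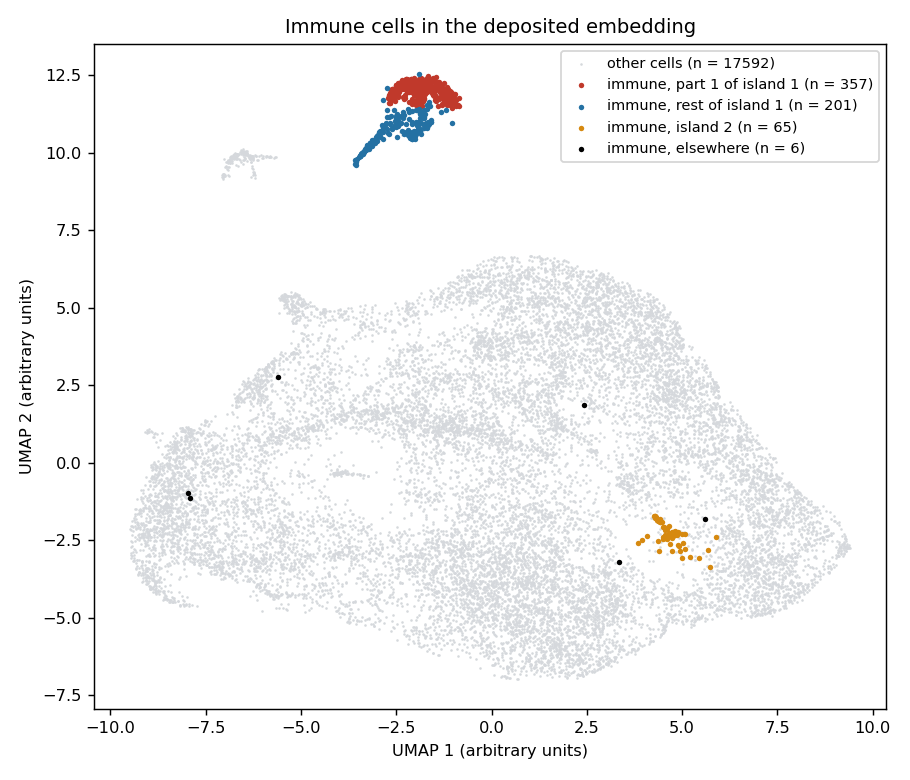
The deposited UMAP embedding (arbitrary units on both axes) with all other cells in grey and the 629 immune cells coloured by place: the largest part and the rest of island 1, island 2, and 6 cells elsewhere. Island 1, with 558 cells, lies alone at the top, and island 2, with 65 cells, lies among beta cells.

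Island 2 was filled mainly by the control normal-diet library. It held 50 of that library's 199 immune cells, or 25.1% (exact 95% interval 19.3 to 31.7%). For the control high-fat diet it held 14 of 282, or 4.96% (2.74 to 8.19%). It held 0 of 67 cells in the cKO high-fat library, which allows up to 4.48%, and 0 of 74 in the batch 2 cKO normal-diet library, which allows up to 4.05%. The batch 1 cKO normal-diet library had 1 of 7, or 14.3% (0.361 to 57.9%). The 2 larger cKO libraries thus lay below the control normal-diet share beyond counting error, whereas 7 cells cannot place the batch 1 library.

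Per 100 beta cells, island 2 had 1.13 cells (0.841 to 1.50) in the control normal-diet library and 0.289 (0.158 to 0.486) in the control high-fat library, a 3.92-fold difference (2.17 to 7.11). In the cKO high-fat library 0 of these cells beside 2093 beta cells allow up to 0.143. The control normal-diet value was 7.92-fold that limit, leaving out its own counting error. The exact interval of the cKO high-fat value reached 0.176, below the 0.841 at which the control normal-diet interval began. Batch 2, with 236 beta cells, allows up to 1.27, so no difference from the control normal-diet library was detectable per beta cell. Per 100 endocrine cells the exact interval of batch 2 reached 0.393, below the control normal-diet value of 0.658 (0.488 to 0.868). Per endothelial cell it reached 0.328, below 0.625 (0.430 to 0.901). Acinar cells, which make digestive enzymes in the tissue around the islets, also differed between the control libraries. There were 107 acinar cells on normal diet, or 2.43 per 100 beta cells (1.99 to 2.94), and 1 on the high-fat diet, or 0.0207 (0.000523 to 0.115). The cKO libraries had 2 in batch 1, 1 in batch 2 and 0 on the high-fat diet. Exocrine tissue thus moved with the contrast between the control libraries, and its part in the immune differences there was not tested.

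Because island 2 lies among beta cells, the comparisons were repeated with island 1 alone, a choice made after the data were seen. The control normal-diet library then had 3.27 immune cells per 100 beta cells (2.75 to 3.86), close to the cKO high-fat value of 3.15 (2.43 to 4.03) and below the control high-fat value of 5.54 (4.88 to 6.26). The log2 ratio of diets in control mice rose from 0.37 to 0.76 (0.46 to 1.06) per beta cell, 1.69-fold, which was above the replicate gap of 0.70. A rise was fixed in advance, since island 2 held a larger share of the control normal-diet cells. The gap rests on 6 batch 1 cells, and its interval, -2.01 to 0.62 for batch 1 over batch 2, allows larger sizes. It was 1.19 (0.89 to 1.49) per endocrine cell, still below the gap of 1.30, and 1.07 (0.52 to 1.61) per endothelial cell, where the call stayed undetermined. The genotype ratio on normal diet was 2.96 (2.37 to 3.54) per beta cell and 1.66 (0.72 to 2.60) per endothelial cell. The ratio of diet ratios per endothelial cell became -1.44 (-2.73 to -0.15), an interval that excluded 0, with no gap to set it against. The direction of these moves was likewise fixed in advance by the same larger share, so they are no separate support.

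Cells of different libraries also sat in different places within island 1. Relative to the median of the whole island, the second coordinate of the control normal-diet cells had a median of -0.89 (quartiles -1.38 and -0.36), whereas that of the control high-fat cells was 0.18 (-0.06 and 0.40). The middle 50% of both libraries did not overlap on this axis. The batch 2 cKO normal-diet library had a median of 0.00 (-0.28 and 0.27) and the cKO high-fat library -0.14 (-0.90 and 0.17). The 6 batch 1 cells lay at -1.11 (-1.16 and -1.08). The control normal-diet and high-fat medians were 1.13 units apart, counting both axes. That is close to the 1.10 units between both cKO normal-diet libraries, whose distance rests on 6 cells. The batch 2 cKO normal-diet and the cKO high-fat medians were 0.267 units apart. Such distances are no measure of how far expression differs.

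Island 1 was divided further by linking its cells within 0.12 units, a distance chosen after the data were seen. This gave 4 parts of at least 10 cells. Part 1, the upper arch, held 357 cells (64.0% of the island). Part 2 held 85 cells below its centre, part 3 held 66 cells along a thin tail at the lower left, and part 4 held 22 cells between them. The parts are not separate islands: a link distance of 0.15 joined them, and 0.1 gave 6 parts. A horizontal split at the most thinly filled level, 0.35 units below the island's median, separated nearly the same upper arch.

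The share of part 1 differed widely between libraries. For the control normal diet it held 34 of 144 island 1 cells, or 23.6% (16.9 to 31.4%), and for the control high-fat diet 227 of 268, or 84.7% (79.8 to 88.8%). For the cKO high-fat diet it was 39 of 66, or 59.1% (46.3 to 71.0%). For the cKO normal diet it was 57 of 74 in batch 2, or 77.0% (65.8 to 86.0%), and 0 of 6 in batch 1 (0 to 45.9%). Leaving aside batch 1, the intervals of the other 3 libraries lay above that of the control normal diet. The batch 1 interval, from 6 cells, overlapped that of the control normal diet. It lay below those of batch 2 and the control high-fat diet, and ended just under that of the cKO high-fat diet. With the horizontal split the control shares were 36 of 144 and 86.2%, and the cKO shares 57.6% on the high-fat diet, 77.0% in batch 2 and 0 cells in batch 1.

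The tail, part 3, was fullest in the control normal-diet library, with 30.6% of its island 1 cells (23.2 to 38.8%). It held 5.60% (3.17 to 9.06%) for the control high-fat diet and 9.09% (3.41 to 18.7%) for the cKO high-fat diet. In batch 2 of the cKO normal diet it held 1 of 74 cells, or 1.35% (0.0342 to 7.30%). Part 2 held 27.8%, 6.34%, 10.6% and 21.6% in the same 4 libraries, and 5 of the 6 cells of batch 1.

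**Figure D4:**
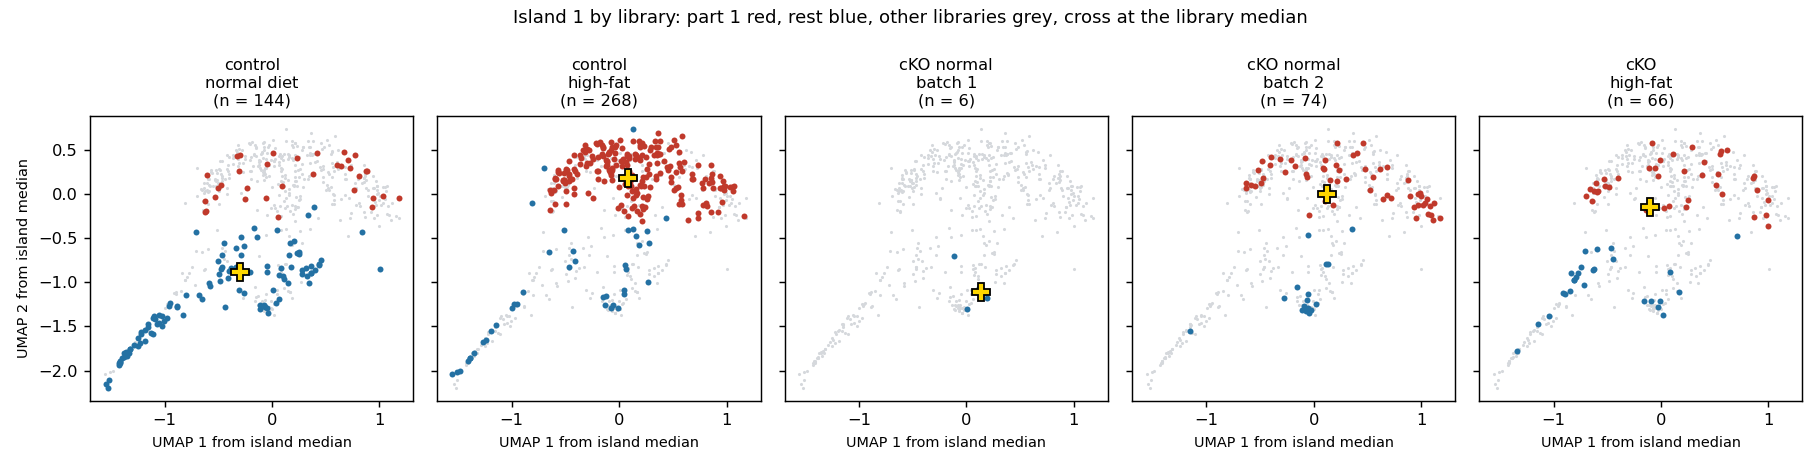
Island 1 drawn separately for each library, as UMAP units from the median of the island on both axes; red points are part 1, blue points the rest, grey points all cells of the island and the yellow cross the library's median. Control normal-diet cells lie mostly in the lower body and tail (23.6% in part 1) and control high-fat cells mostly in the upper arch (84.7%).

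Counted against beta cells, part 1 and the rest of island 1 differed in opposite directions in control mice, where each diet has a single library. Part 1 had 0.772 cells per 100 beta cells (0.534 to 1.08) in the normal-diet library and 4.69 (4.09 to 5.36) in the high-fat library, 6.08-fold more (4.23 to 8.73). The rest of island 1 had 2.50 (2.05 to 3.02) and 0.847 (0.607 to 1.15), 2.95-fold less in the high-fat library (2.05 to 4.23). Per endothelial cell the same differences were 7.52-fold more (4.65 to 12.2) and 2.38-fold less (1.47 to 3.85). The total per beta cell, only 1.29-fold higher, thus combined a higher part 1 with a lower remainder and a lower island 2. A cell whose expression shifts can be placed elsewhere in the embedding, so these differences may be of cell numbers or of state, and they cannot be told apart here.

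In cKO mice both the upper arch and the remainder were lower per beta cell on the high-fat diet. Part 1 had 24.2 cells per 100 beta cells (17.8 to 32.4) in batch 2 on normal diet and 1.86 (1.32 to 2.56) on the high-fat diet, and the rest of island 1 had 7.20 (4.13 to 11.8) and 1.29 (0.848 to 1.88). Per endothelial cell neither difference exceeded counting error: the log2 ratio was -0.75 (-1.98 to 0.47) for part 1 and 0.46 (-0.92 to 1.84) for the rest. These libraries were of different batches. In batch 1 of the normal diet part 1 had 0 cells beside 31 beta cells, which allows up to 9.68 per 100, and the rest had 19.4 (6.60 to 47.1).

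Between genotypes on normal diet, part 1 had the larger ratio of the regions in island 1 when batch 2 was used. Its log2 ratio over the control was 4.97 (4.33 to 5.61) per beta cell and 3.37 (2.32 to 4.41) per endothelial cell. For the rest of island 1 the ratios were 1.53 (0.77 to 2.29) and -0.07 (-1.19 to 1.05). The batch 1 library, with 0 part 1 cells among 6, did not show a part 1 majority, so the pair of replicates differed here.

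On the high-fat diet, within batch 1, part 1 was lower in the cKO library per beta cell, with a log2 ratio of -1.33 (-1.83 to -0.84), but not beyond counting error per endothelial cell, at -0.30 (-1.24 to 0.64). The rest of island 1 was higher in the cKO library per endothelial cell, at 1.64 (0.57 to 2.71), and per beta cell the ratio was 0.61 (-0.10 to 1.31). With the horizontal split the latter was 0.81 (0.10 to 1.52). None of the comparisons by region has a replicate check beyond the batch 1 library of 6 cells.

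**Figure D5:**
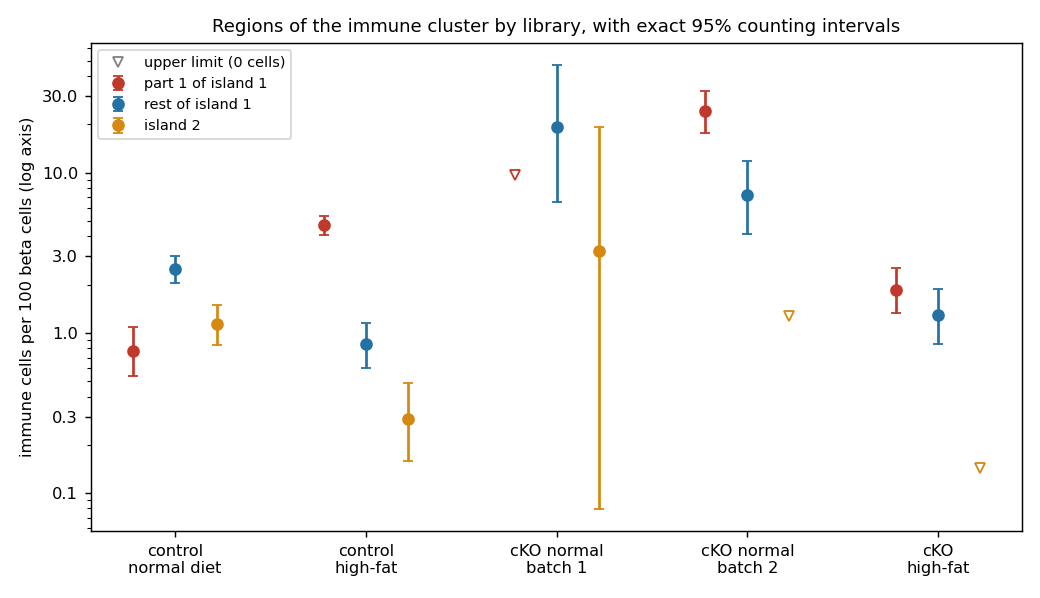
Immune cells per 100 beta cells (log axis) in part 1 of island 1, the rest of island 1 and island 2, by library, with exact 95% counting intervals; open triangles are upper limits for 0 cells. In control mice part 1 goes from 0.772 on normal diet to 4.69 on the high-fat diet while the rest goes from 2.50 to 0.847 and island 2 from 1.13 to 0.289.

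The 10 nearest immune neighbours of each immune cell came from its own library more often than numbers alone gave. The ratio of observed to expected was 1.92 and 1.33 for controls on normal and high-fat diet, 2.10 for batch 2 of the cKO normal diet and 2.02 for the cKO high-fat diet. Between the control libraries the ratio was low in both directions, at 0.537 and 0.514. Control high-fat cells had 1.16 times the expected neighbours from batch 2 of the cKO normal diet and 0.967 times those from the cKO high-fat library. Control normal-diet cells had 0.537 and 0.744 times the expected neighbours from the same libraries. The 7 cells of batch 1 had 1.58 times the expected neighbours from the control normal-diet library and 0.606 times those from batch 2 of their own group. Their own-library ratio was 17.9 with 10 neighbours, 32.9 with 5 and 9.72 with 20, and rests on an expected share of 0.955%.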

How the data were processed

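Per the labels' protocols, hand-picked islets were dissociated with accutase and run on 10x Genomics 5′ chemistry, and the submitters' processing notes name Cell Ranger 7.1.0 and GRCm39. The authors deposited cell type names, cluster numbers, library names and UMAP coordinates, which are treated here as scores in arbitrary units. How cells were filtered, checked for doublets, integrated, clustered and named is not given in the sources used here. Sequencing depth per cell is unknown, so cell numbers set the precision.

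The 4 tables were joined by cell identifier (18221 cells in each). Library names were matched to sample titles through their genotype and diet, and the numbers of both cKO normal-diet libraries were read as batches, although the cell identifiers of both share 1 ending. No doublets were called. Ratios of counts have exact 95% intervals from the binomial distribution, shares have Clopper-Pearson intervals, and log2 ratios have delta-method intervals. All intervals and limits (3 cells for a count of 0) cover counting error only. For cKO normal diet the libraries were averaged with equal weight. Comparisons needed 20 cells of the type and 20 denominator cells, summed over the libraries compared. Exact permutation tests over libraries were adjusted by Benjamini-Hochberg over 6 tests. Nothing says that pooled mice differ between libraries of a group, so the replicate gap may be technical. Islands are connected groups within 0.5 UMAP units. No gene was named, since the tables hold none, and every island of at least 10 cells was described. The scripts (Python 3.11.15, scipy 1.17.1) were tested on simulated data. The members, measures and alternatives were chosen with earlier results of these data known. The regions inside island 1, and counting island 1 alone, were chosen after their values were seen.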

Additional observations from a re-analysis of the deposited data

Results flagged for a closer look

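In control mice the high-fat library had more immune cells than the normal-diet one. For the cKO genotype the high-fat library lay below each normal-diet library that gave a value, under all 3 denominators. Per endothelial cell that log2 ratio was -0.35 (-1.52 to 0.82), an interval that included 0. The ratio of diet ratios was -3.44 on the log2 scale per beta cell, -3.23 per endocrine cell and -1.02 per endothelial cell, the last with a counting interval of -2.31 to 0.26. This difference between the diet ratios was not tested over libraries. Per beta cell it was below 0, with an interval excluding 0, for all 6 cell types with enough cells, so it was not particular to immune cells. Opposite directions for immune cells were already known from shares of all cells, so these values are not independent support.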

How the results depend on the processing

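Of 38 other ways of computing the ratios per beta or endocrine cell, 36 kept direction and side of the replicate gap and none reversed. All 11 per endothelial cell, where no gap could be measured, kept their direction and whether the interval excluded 0. Those that leave out batch 1 repeat the main value, since that library has no endothelial cell and never entered it. The genotype ratio per beta cell on the high-fat diet was -0.50 without beta cluster 9, no longer past its gap. The diet ratio per endocrine cell in cKO mice ranged from -3.00 to -1.48 when either cKO normal-diet library was left out, and the value without batch 1 fell below the gap. Of those chosen after seeing the data, 21 of 22 and 6 of 8 did so. With island 1 alone, the diet ratio per beta cell in control mice was 0.76, now past a gap of 0.70 that rests on 6 batch 1 cells. The ratio of diet ratios per endothelial cell was -1.44, its interval now excluding 0. Batch 1 has no part in that value. The direction of both moves was fixed in advance, since island 2 held a larger share of the control normal-diet cells. All 30 other settings of the permutation tests kept their direction, which says nothing about stability, as no p below 0.05 is possible. Per endothelial cell, leaving out batch 2 gave no value for comparisons with the cKO normal diet. Link distances of 0.25 and 1 also gave 2 islands. A link distance of 0.15 placed 97.2% or more of each library's island 1 cells in 1 part, and 0.1 gave part 1 shares of 16.0% and 72.8% in the control libraries on normal and high-fat diet. No paired analysis was possible because only the cKO normal-diet group has more than 1 library. Precision is limited by the 13 and 15 endothelial cells of the cKO libraries and the 7 immune cells of batch 1, and variation between mice is not covered.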
